A study of Xenopus laevis with 8 samples.

Results

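The transcriptome of hindlimb buds was described in Xenopus laevis tadpoles that had received ethanol alone. The series held 8 arrays, and the 4 arrays labelled as ethanol controls were chosen by that label, with no measured value used in the choice. Tadpoles of 2 clutches from a commercial supplier were raised to stage 52 and kept for 24 h in water with ethanol, the vehicle in which the Hedgehog pathway inhibitor cyclopamine was given to the animals of the other 4 arrays. Those 4 arrays were not used here, except in an alternative normalization over all 8 arrays. The labels give no genotype, strain or transgene. Ethanol arrays 3 and 4 came from clutch B, and ethanol arrays 1 and 2 came from clutch A. Each array was hybridised with RNA from 1 pool of 18 to 22 whole hindlimb buds cut off at the base of the limb, so each value averages over many animals and over every cell type of the bud. All 4 pools had been in ethanol, and any effect of ethanol on these levels cannot be told apart from the state of an untouched bud.

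A limb bud at this stage is a paddle of mesenchyme under a layer of ectoderm. The mesenchyme gives rise to the cartilage, bone and connective tissue of the limb, muscle precursors enter it from the somites, and blood, vessels and nerves grow in from the trunk. In amniotes, ectoderm at the tip forms a ridge that secretes fibroblast growth factors, and posterior mesenchyme secretes Sonic hedgehog. Hindlimb buds are set apart from forelimb buds by the transcription factors Pitx1 and Tbx4, while Tbx5 is the forelimb counterpart of Tbx4. The posterior Hox groups mark the outer segments of the limb. Xenopus laevis carries 2 subgenomes, and the copies of a gene in them are marked .L and .S.

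Levels are given as log2 of the intensity after quantile normalization over the 4 ethanol arrays. Values below 42.15 intensity units, the 20th percentile of all values, were set to that floor, which is 5.40 on the log2 scale. A gene was called well above background when it reached at least 4 times the floor (7.40 on the log2 scale) on every array, and near background when its mean was under 2 times the floor (6.40). The 15491 probe sets used gave 13718 genes or unnamed probe sets, of which 7531 were named genes. Deposited medians lay between 191.6 and 216.3 intensity units on the 4 arrays. A rank by intensity orders the brightness of probe sets, which also depends on the probes, so that ranks do not compare amounts of RNA between genes.

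Of the 7531 named genes, 4289 (57.0%) were well above background, 1901 (25.2%) were near it, and 655 (8.70%) were at the floor on all 4 arrays. The median named gene had a log2 intensity of 8.14. Among the 6187 probe sets without a single symbol, 2356 (38.1%) were well above background and 2536 (41.0%) near it. These unnamed probe sets also reached the top of the range, and 39 of the 100 brightest entries had no name.

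The brightest named genes coded for globins and ribosomal proteins. The beta-type globin hbd.S ranked first, at 15.11, 15.03, 15.15 and 15.22 on ethanol arrays 1 to 4 (mean 15.13 ± 0.08, SD, n = 4). The ribosomal protein gene rps13.L followed at 15.15, 15.15, 15.08 and 15.10 (15.12 ± 0.04). The 2 genes overlapped on the 4 arrays, and their order is not larger than their spread. Among the 30 brightest named genes, 22 coded for ribosomal proteins, 4 for globins, and 1, eef1g.L, for a subunit of translation elongation factor 1. The other 3 were XB5843130.S, casc3.S and MGC114621, and belonged to no list used here. Their names are those of the array's annotation, and their probes were not checked against the genes. Among the 100 brightest named genes, none of which was below 13.48, ribosomal proteins held 60 places and red blood cell genes 5.

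The globins did not spread alike among the pools. The alpha globin hba4.S was at 14.35, 14.85, 14.03 and 14.79 on ethanol arrays 1 to 4 (14.51 ± 0.39). It was higher on arrays 2 and 4 than on arrays 1 and 3. The alpha globin hba2.L had the same split at 14.84, 15.01, 14.78 and 15.01 (14.91 ± 0.12), and so had hbg2.L at 14.78, 14.94, 14.65 and 14.91 (14.82 ± 0.13). In quantile-normalized values the brightest globin, hbd.S, did not have this split and was lowest on array 2. The globin hbg1.L was at the floor on every array. Single globins are not given under other scalings. As deposited, the mean of the ribosomal proteins, also at the top of the range, was 14.02 on array 2 and 13.69 on array 1. After quantile normalization it was 13.81 and 13.80, so the order of hbd.S over the arrays can depend on the scaling. Over the 22 measured red blood cell genes, 11 were well above background and 5 near it, with a median of 7.64. Blood in the bud is part of each pool, and fewer cells of a type cannot be told apart from less RNA per cell in such bulk samples.

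Other genes at the top of the range belonged to the connective tissue and the cytoskeleton. The type I collagen gene col1a2.L, which codes for the alpha 2 chain of the main fibrous collagen, was at 14.07, 14.09, 14.40 and 14.54 (14.27 ± 0.23). Its partner col1a1.S was at 14.09, 14.07, 14.38 and 14.38 (14.23 ± 0.17). In quantile-normalized values both collagen genes were higher on each array of clutch B than on either array of clutch A. Limma called 0% of all genes in that comparison. How many of all genes separated the clutches in this way was not counted. The 2 genes are not given under other scalings. Ribosomal proteins, of like brightness, averaged 13.806 on array 2 and 13.805 on array 3 after quantile normalization. As deposited they averaged 14.02 and 13.71, so the separation of the collagen genes can depend on the scaling. Over 21 connective tissue genes the means were 11.22, 11.02, 11.50 and 11.25 on ethanol arrays 1 to 4. With array medians subtracted instead of quantile normalization they were 11.22, 11.16, 11.37 and 11.20, and array 1 lay above array 4. The actin gene actg1.L averaged 14.26 ± 0.07, the actin-binding thymosin gene tmsb4x.L 14.23 ± 0.08, and sparc.S, which codes for a collagen-binding matrix protein, 13.86 ± 0.18. The brightest keratin was krt62.L, at 13.77, 14.13, 13.66 and 13.86 (13.86 ± 0.20).

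**Figure D1:**
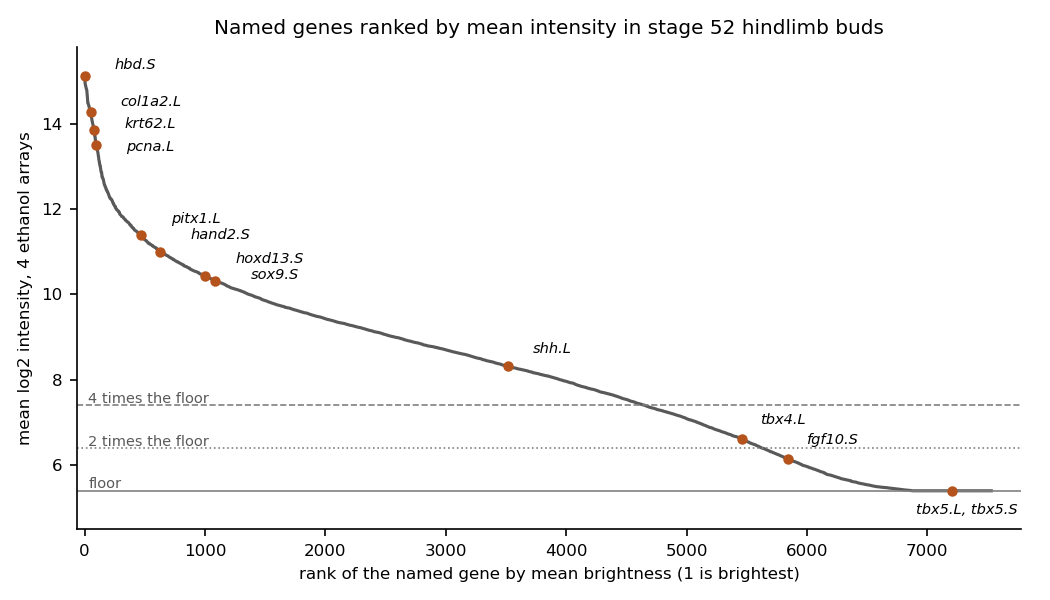
Mean log2 intensity of the 7531 named genes over the 4 ethanol arrays (vertical axis) against their rank (horizontal axis), with the floor and 2 and 4 times the floor as lines and chosen genes as points. Globin, collagen and keratin genes stand at the steep left end, pitx1.L and hand2.S on the shoulder, and tbx5.L and tbx5.S on the flat stretch of 655 genes at the floor.

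Genes of the general machinery of the cell were bright as groups. Of 74 ribosomal protein genes, 70 were well above background, with a median of 14.29. The exceptions were rpl3l.L, a muscle-type paralogue in mammals, at the floor, rpl28.L at 5.47, rps10.L at 5.77 and rps20.L at 6.58. Of 68 respiratory chain genes, 66 were well above background with a median of 11.08, led by the ATP synthase subunit gene atp5f1b.S at 13.54 ± 0.10. The counts well above background were 56 of 58 for splicing genes (median 10.84), 34 of 35 for chaperones (11.18), 44 of 49 for proteasome subunits (10.70) and 52 of 61 for translation factors (10.76). Each share exceeded the 57.0% of all named genes, and each median the 8.14 of all named genes.

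Of 44 housekeeping genes, 41 were well above background and none was near it, with a median of 11.69. The lowest was tbp.L, which codes for the TATA-binding protein, at 7.37, 6.76, 7.09 and 6.89 (7.03 ± 0.27). Cell cycle genes were also high, with 70 of 84 well above background and a median of 9.59. The replication clamp gene pcna.L was at 13.58, 13.49, 13.55 and 13.39 (13.50 ± 0.08), and its copy pcna.S averaged 11.74 ± 0.23. The histone variant gene h2az1.L averaged 13.60 ± 0.31 and the microtubule regulator gene stmn1.S 12.80 ± 0.21. Some members were dark. Both mcm3.L and mcm6.L, copies of genes for subunits of the replicative helicase, were at the floor on all 4 arrays, as were birc5.L and ccnb1.S. Other cyclin B1 entries, ccnb1.2.L and ccnb1.2.S, were placed in the oocyte and early embryo list and averaged 11.16 ± 0.15 and 10.48 ± 0.22.

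**Figure D2:**
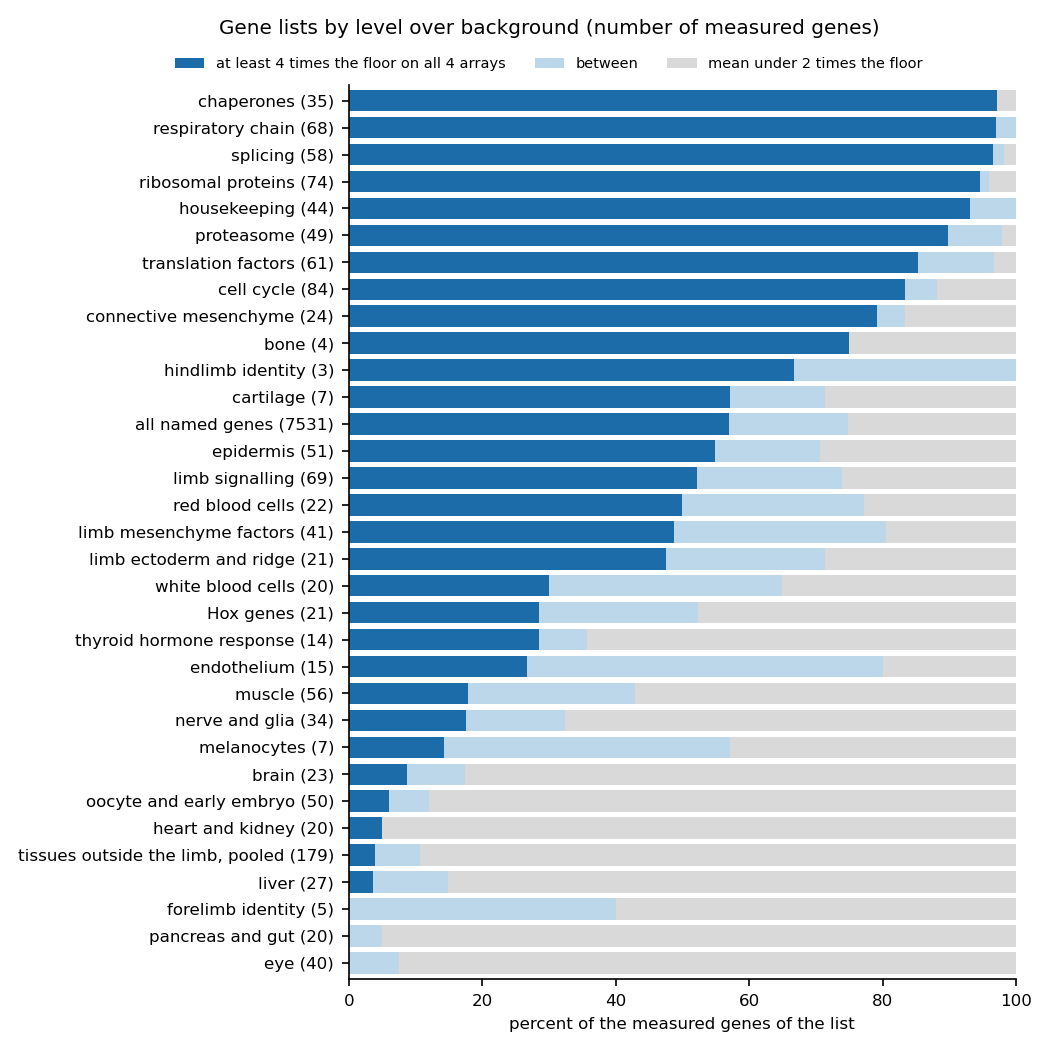
Percent of the measured genes of each list (horizontal axis) that were at least 4 times the floor on all 4 ethanol arrays, between the limits, or under 2 times the floor in the mean, with the number of measured genes in brackets. Lists of cell machinery stand above all named genes (57.0% well above background), and lists of tissues outside the limb lie at the bottom (3.91% when pooled).

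The genes that tell hindlimb from forelimb followed the label of the tissue in part. The hindlimb factor pitx1.L was at 11.62, 10.94, 11.73 and 11.24 on ethanol arrays 1 to 4 (11.38 ± 0.36), and ranked 469 of the 7531 named genes. Both copies of the forelimb factor, tbx5.L and tbx5.S, sat at the floor on each array. The posterior Hox gene hoxc10.L, which marks hindlimb levels in vertebrate embryos, was at 8.98, 8.74, 8.60 and 8.34 (8.67 ± 0.27). The hindlimb T-box gene tbx4.L was low, at 6.86, 6.40, 6.54 and 6.64 (6.61 ± 0.19), between the limits for near and well above background. That value averages 2 probe sets, one with a mean of 7.77 and one with a mean of 5.45, so the level of tbx4.L depends on the probe set read. Among the forelimb-level Hox genes, hoxc8.S averaged 7.49 ± 0.38, hoxc6.S 6.44 ± 0.20 and hoxc5.L 5.58 ± 0.36.

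Of 21 measured Hox genes, 6 were well above background, 10 were near it, and the median was 6.44, below that of all named genes. The brightest was hoxd13.S, a gene of the last Hox group that patterns the digits, at 10.45, 10.29, 10.82 and 10.14 (10.43 ± 0.29). Its fellow hoxa13.S was at 8.60, 7.93, 8.98 and 8.98 (8.62 ± 0.50). Of the groups 9 to 11, hoxc10.L was well above background as given above, hoxa11.S was at 7.61 ± 0.34, hoxd10.L at 7.53 ± 0.37 and hoxd9 at 6.49 ± 0.22. Hox groups below 9 were not all dark. The third-group gene hoxa3.S was at 9.33, 9.10, 9.61 and 9.27 (9.33 ± 0.21), hoxa7.L averaged 8.71 ± 0.44 and hoxd3.L 7.64 ± 0.18. The HoxB genes measured were all near background or at the floor, with hoxb9 at 6.27 ± 0.48, hoxb4.S at 6.07 ± 0.62, hoxb7.L at 5.60, hoxb7.S at 5.51 and hoxb5.S at the floor. The remaining members, hoxd8.L (6.26), hoxa2.L (5.69), hoxc12.L (5.47) and hoxa2.S at the floor, were near background too. The value of hoxa11.S averages 4 probe sets, and those of hoxb7.L, hoxc6.S, hoxd8.L and hoxd9 average 2 each. Hox paralogues are close in sequence, and no probe sequences were used here to tell which copies a probe set can bind.

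**Figure D3:**
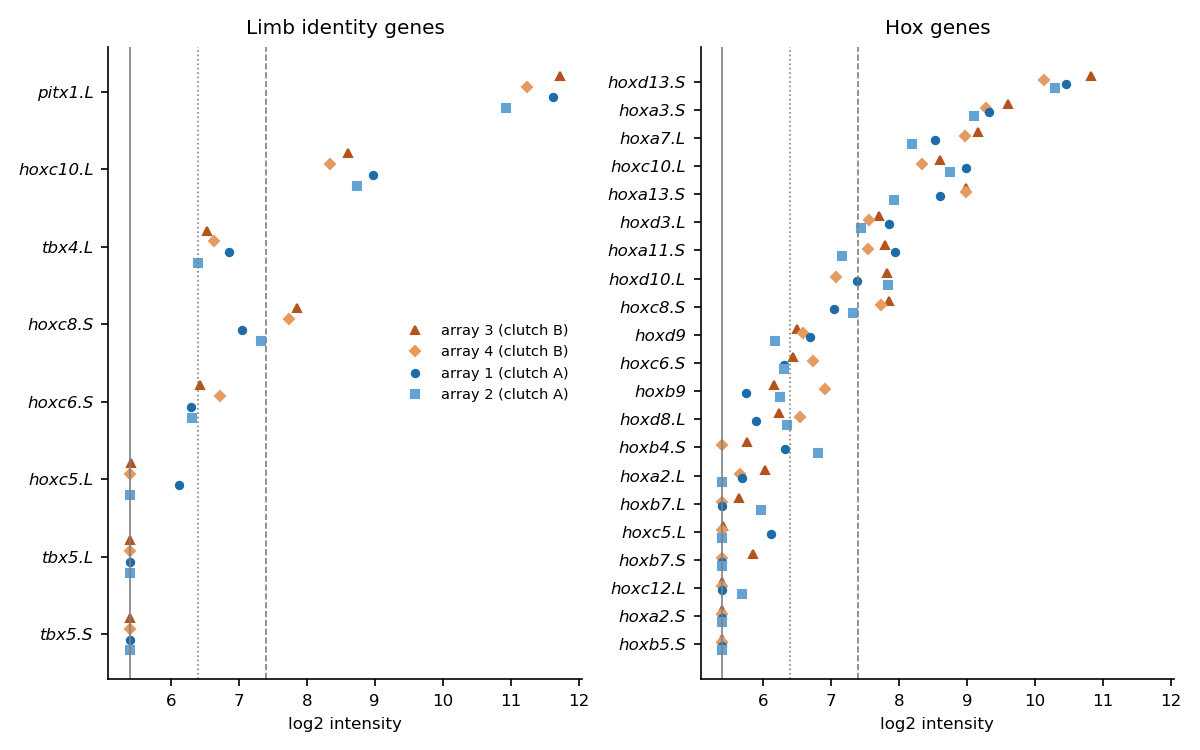
Log2 intensity (horizontal axes) of limb identity genes, left, and of all 21 measured Hox genes, right, on each ethanol array. Lines mark the floor (solid), 2 times the floor (dotted) and 4 times the floor (dashed), and pitx1.L, hoxc10.L and hoxd13.S lie to the right of the dashed line on every array while tbx5.L and tbx5.S sit on the floor.

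Of 41 transcription factor genes of the limb mesenchyme, 20 were well above background and 8 near it, with a median of 7.64. Both copies of hand2, a posterior factor that switches on Sonic hedgehog in the limb bud of mice, were the brightest of the list. The copy hand2.S was at 11.44, 10.67, 11.38 and 10.54 (11.01 ± 0.47), and hand2.L at 11.05, 10.53, 11.26 and 10.95 (10.95 ± 0.31). The fibroblast growth factor target etv4.L averaged 10.72 ± 0.26 and the Hox cofactor gene pbx2.L 10.44 ± 0.39. The Hedgehog effector gene gli3.L was at 9.48, 8.58, 9.88 and 9.07 (9.25 ± 0.56). The homeobox gene msx1.L averaged 9.09 ± 0.28, and the T-box gene tbx3.S 9.00 ± 0.44. The Hedgehog target gli1.S was at the floor throughout, as were foxc2.S and foxd1.L.

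Of 69 limb signalling genes, 36 were well above background and 18 near it, with a median of 7.96. The brightest were the BMP targets id3.S at 11.53 ± 0.31, a second id3 entry at 11.26 ± 0.51 and id2.L at 11.22 ± 0.24, and the Wnt receptor gene fzd2.S at 11.03, 10.35, 11.54 and 10.95 (10.97 ± 0.49). The ligand gene shh.L was at 8.17, 8.21, 8.39 and 8.50 (8.32 ± 0.15), which is 7.57 times the floor. The Hedgehog receptor and target ptch1.S averaged 5.77 ± 0.32, near background. The other Hedgehog ligand genes measured, dhh.L, dhh.S and ihh.S, were at the floor. Both copies of cyp26a1, which codes for an enzyme that breaks down retinoic acid, were at the floor too.

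Ectoderm and ridge genes had 10 of 21 members well above background and 6 near it (median 7.57). The ectodermal homeobox gene dlx3.S was at 9.02, 9.90, 10.08 and 10.53 (9.88 ± 0.64), lowest on ethanol array 1. The ligand gene bmp2.L was at 9.45, 9.13, 9.42 and 9.01 (9.25 ± 0.22). Of the fibroblast growth factors, fgf9.S was at 8.46, 9.18, 9.18 and 9.40 (9.06 ± 0.41). The ridge signal fgf8.L was at 6.33, 6.35, 6.43 and 6.97 (6.52 ± 0.30) as the mean of 3 probe sets, of which the brightest averaged 7.60 and the dimmest 5.58. The mesenchymal signal fgf10.S was near background between 5.82 and 6.51 on the 4 arrays (6.15 ± 0.30), as the mean of 2 probe sets. Both fgf4.S and fgf20.L were at the floor.

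Thyroid hormone drives the later growth of the tadpole limb. Of 14 genes of that list, 9 were near background and 4 were well above it (median 5.88). The list held thdl20.L and thdl20.S but not thdl17.L and thdl18.S, which are alike in symbol. The genes left out averaged 11.82 and 11.43, above every member of the list, so its counts depend on that choice. Whether the hormone raises or lowers these genes was not looked at here, so their level is not read as a response. The direct targets thibz.L, thibz.S and klf9.L and the deiodinase gene dio3.L, whose product inactivates the hormone, were at the floor on all 4 arrays. The receptor gene thra.L was at 8.24, 8.19, 8.12 and 7.90 (8.11 ± 0.15). The coactivator gene ncoa3.S averaged 10.10 ± 0.28, the corepressor gene ncor1.S 8.24 ± 0.25, and mmp11.L, a thyroid hormone response gene of Xenopus that codes for a matrix protease, 7.57 ± 0.09, well above background.

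Connective tissue genes were the brightest of the tissue lists, with 19 of 24 well above background and a median of 11.33. The intermediate filament gene vim.L, common in mesenchyme, was at 12.47, 12.12, 12.71 and 12.40 (12.42 ± 0.24). Cartilage genes were mixed, with 4 of 7 well above background and a median of 8.23. The cartilage collagen gene col2a1.S was at 11.09, 11.04, 11.21 and 11.14 (11.12 ± 0.07), with one of the smallest spreads among the tissue markers named here. The chondrogenic factor gene sox9.S was at 10.66, 9.86, 10.70 and 10.06 (10.32 ± 0.42), cnmd.L, which codes for chondromodulin, averaged 10.01 ± 0.22, and col9a1.L 8.23 ± 0.48. The matrilin gene matn2.L was at the floor. Only 4 bone genes were measured. Among them alpl.L, the alkaline phosphatase of mineralising tissue, averaged 8.71 ± 0.07, dlx5.L 8.44 ± 0.19 and the osteoclast phosphatase gene acp5.S 8.31 ± 0.26, while the osteocalcin gene bglap.S was near background at 5.48 ± 0.09.

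Of 51 epidermal genes, 28 (54.9%) were well above background and 15 near it, with a median of 8.08, close to the 57.0% and 8.14 of all named genes. After krt62.L came krt12.5.S at 13.37 ± 0.18, the plakoglobin gene jup.L at 11.28 ± 0.30 and the cell adhesion gene epcam.L at 10.73, 11.39, 10.94 and 11.54 (11.15 ± 0.38). The basal layer factor tp63.L was near background at 5.57 ± 0.20. The keratins krt51.L, krt70.L, krt78.6.L and krt78.7.L were at the floor.

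Muscle genes were mostly dim, with 32 of 56 near background, 10 well above it and a median of 6.09. The brightest member, ckb.L, is a brain-type creatine kinase that other tissues also express, and averaged 11.69 ± 0.35. The next were genes of differentiated fibres, all well above background, namely mylpf.L at a mean of 10.30, tnni2.S at 9.48 and tnnt3.S at 9.24, and ckm.L averaged 9.12. Of the early muscle factors, myf5.L was at 8.99, 8.40, 8.64 and 8.12 (8.54 ± 0.37) and pax3.L at 8.19, 7.83, 8.62 and 8.24 (8.22 ± 0.32). Both were well above background and were named after their values were seen. The list also held pax3.S, myod1.L, myog.L, myog.S and myf6.L, whose levels are not given here. The 4 probe sets of pax3.L ranged between means of 5.95 and 10.87. The determination factor myod1.S was lower, at 6.95, 7.12, 6.40 and 6.20 (6.67 ± 0.44). The receptor gene met.L, needed by migrating muscle precursors in mice, was at the floor, as were the fibre genes chrnd.L, actn2.S and cacng1.L.

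Vessel, nerve, pigment and white blood cell genes were low as groups, with single bright members. Of 15 endothelial genes, 4 were well above background and 3 near it (median 6.83), led by the ETS factor gene fli1.S at 9.62 ± 0.27 and the tight junction gene cldn5.S at 8.74 ± 0.22, and pecam1.L averaged 7.99 ± 0.09. Of 34 nerve and glial genes, 23 were near background (median 5.58). The brightest members pmp22.L (12.16 ± 0.33), pmp22.S (11.39 ± 0.63), tubb2b.S (9.30 ± 0.30) and ncam1.S (9.29 ± 0.50) are also expressed outside nerves, while the neuronal tubulin gene tubb3.L averaged 5.58 and elavl4.L, cntn1.L, cntn1.S and egr2.L were at the floor. Of 20 white blood cell genes, 6 were well above background and 7 near it (median 6.86). The lysosomal protease gene ctsc.L averaged 11.27 ± 0.14, and the antigen presentation gene cd74.L was at 8.61, 9.12, 9.99 and 10.45 (9.55 ± 0.83). The pan-leukocyte gene ptprc.L, the T cell gene cd3g.S, lyz.L and mpo.S were at the floor. Of 7 pigment cell genes, 1 was well above background, gpr143.L at 9.14 ± 0.28, and tyrp1.L averaged 7.25 ± 0.41 and pmel.S 7.17 ± 0.28, while mitf.L was at the floor.

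Genes of tissues outside the limb gave the level of markers of other organs on the same arrays. Of 179 genes of liver, pancreas and gut, eye, brain, oocyte and early embryo, and heart and kidney, 160 (89.4%) were near background, 82 (45.8%) were at the floor on all 4 arrays, and 7 (3.91%) were well above background, with a median of 5.43. Genes at the floor included apoa1.L and apob.S of plasma lipoproteins, cpa1.L and cela3b.L of pancreatic juice, the lens crystallin genes cryaa.S and cryba1.L, the growth hormone genes gh1.L and gh1.S, and gata4.L and gata4.S of the heart. The 7 exceptions began with the cyclin B1 entries ccnb1.2.L at 11.16 ± 0.15 and ccnb1.2.S at 10.48 ± 0.22, placed in the oocyte and early embryo list. The entry ccnb1.S stood in the cell cycle list instead. The tyrosine breakdown enzyme gene hpd.L was at 9.54, 9.66, 9.54 and 9.14 (9.47 ± 0.23). The germ cell helicase gene ddx4.L was at 9.62, 9.51, 9.13 and 9.18 (9.36 ± 0.24). Next came the sodium pump subunit gene atp1b1.S at 9.16 ± 0.11, the growth cone gene gap43.L at 7.94 ± 0.34 and emx2.L at 7.93 ± 0.20. Of these, emx2.L stood in the limb mesenchyme list as well as in the brain list, and gap43.L in the nerve and glia list too. The copies tbx5.L and tbx5.S, at the floor, counted both as forelimb identity genes and as heart and kidney genes.

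The 4 arrays were close to each other. Among the 10109 genes or probe sets above the floor on all 4 arrays, the median SD was 0.245 on the log2 scale, with a 10th percentile of 0.104 and a 90th percentile of 0.490. The highest and lowest array differed by less than 1 unit, a factor of 2, for 86.6% of them and by less than 0.5 for 44.3%. Correlations between pairs of arrays across these genes, which are not independent replicates, lay between 0.948 for arrays 2 and 3 and 0.972 for arrays 3 and 4. The number of genes over 2-fold apart was 195 (1.93%) between arrays 3 and 4, both of clutch B, and 329 (3.25%) between arrays 1 and 2, both of clutch A. Between clutches it ran between 256 (2.53%) for arrays 1 and 3 and 712 (7.04%) for arrays 2 and 3. Array 2 held 31.2% of the squared deviations from the gene means, against 20.8% for array 1, 26.4% for array 3 and 21.6% for array 4.

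The spread narrowed with level, and how far it narrowed depended on the scaling. In quantile-normalized values the median SD was 0.305 for genes under 7, 0.175 for genes between 12 and 13 and 0.0624 for the 106 genes between 14 and 16. In intensities as deposited that last group, then of 107 genes, had a median SD of 0.189, and 0.247 with array medians subtracted. The 72 ribosomal protein genes above the floor on all arrays had a median SD of 0.0652 after quantile normalization, 0.173 as deposited and 0.237 with array medians subtracted. At the top of the range the narrow spread thus held for quantile-normalized values alone, and below 8 the 3 scalings gave medians between 0.269 and 0.311.

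**Figure D4:**
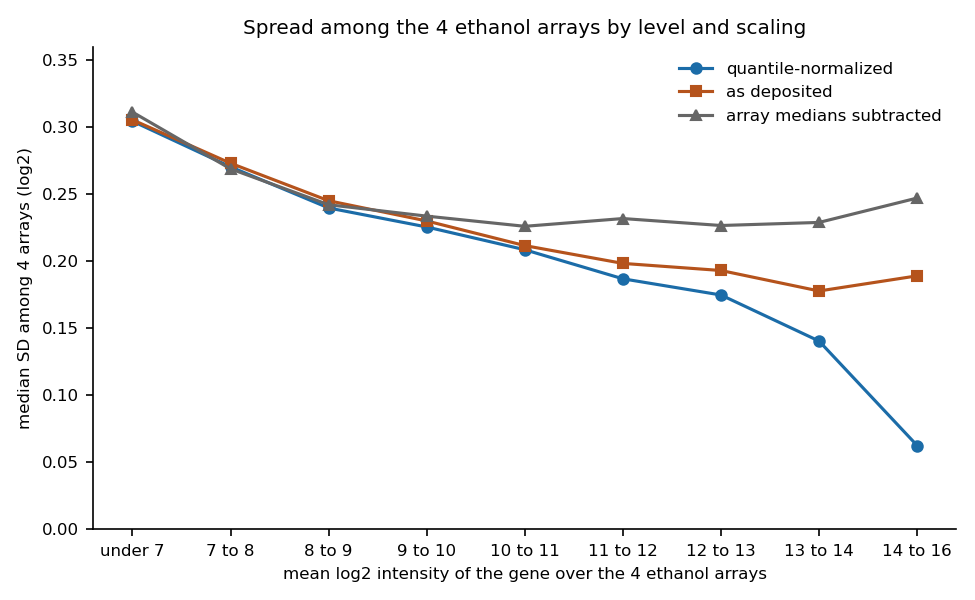
Median SD among the 4 ethanol arrays on the log2 scale (vertical axis) by the mean log2 intensity of the genes (horizontal axis), under 3 scalings. The lines lie together for dim genes and part for bright ones, ending at 0.0624 after quantile normalization, 0.189 as deposited and 0.247 with array medians subtracted.

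Among the 4289 named genes well above background, the smallest SDs were nearly nil. The calcium pump gene atp2a2.S was at 10.14, 10.14, 10.14 and 10.15, and the proton pump subunit gene atp6v1c1.L at 9.00, 8.99, 9.01 and 8.99. The splicing gene rbm22.S was at 11.05, 11.05, 11.02 and 11.05. The 10 smallest SDs also took in ppa2.S, taok2.L, ap2m1.L, rps28p9.S, rps29.S, ralb.L and eif3l.L. Averaging of probe sets can narrow a spread, and atp2a2.S averages 2, rps29.S 3, and atp6v1c1.L and rps28p9.S 4 each. At 14.43, rps29.S also lies where the narrow spread held for quantile-normalized values alone. These SDs are the extremes of 4289, each from 4 arrays, and do not show that the genes are stable.

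Several of the genes with the widest spreads shared 1 order over the arrays. Among the 15 named genes with the largest SD, 4 were fast muscle genes. The myosin light chain gene mylpf.L was at 8.98, 10.65, 11.64 and 9.94 on ethanol arrays 1 to 4 (SD 1.12), the troponin genes tnnt3.S at 7.83, 9.68, 10.51 and 8.96 (1.14) and tnni2.S at 8.25, 10.21, 10.34 and 9.10 (0.99), and the muscle creatine kinase gene ckm.L at 7.70, 9.56, 9.78 and 9.42 (0.95). All 4 were lowest on array 1 and highest on array 3. The myosin light chain gene myl1.S, at 6.77, 8.87, 10.22 and 7.99 (8.46 ± 1.45), had the same order. Over the 24 muscle genes above the floor on all arrays, 16 were highest on array 3 and 14 lowest on array 1. How many of all named genes were highest on array 3 or lowest on array 1 was not counted. The mean of the muscle list was 7.53, 8.36, 8.60 and 7.84. The 2 arrays of each clutch differed in it by more than the clutches did. The muscle factors named above did not share the order, and myf5.L and myod1.S were lowest on array 4. Nor did ckb.L, the brightest gene of the list, at 11.79, 12.09, 11.24 and 11.62, highest on array 2 and lowest on array 3.

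Epidermal genes had another order. Their mean over 40 genes was 8.76, 9.36, 9.22 and 9.54, with 31 of 40 lowest on array 1 and 21 highest on array 4. Ectoderm and ridge genes ran at 7.81, 7.93, 8.24 and 8.36 over 16 genes, and both arrays of clutch B were above both of clutch A. Limb signalling genes ran at 8.60, 8.32, 8.77 and 8.47 over 55 genes, with 33 highest on array 3 and 30 lowest on array 2. Respiratory chain genes ran the other way at 11.13, 11.35, 10.83 and 11.07 over 68 genes, with 57 highest on array 2 and 58 lowest on array 3. Of all 6040 named genes above the floor on all arrays, 2030 were highest on array 2 and 1997 lowest on array 3. Over all named genes, the counts that match those given for the other lists were not made. The orders of the muscle, epidermal, ridge, signalling and respiratory chain means were the same in values as deposited, with array medians subtracted and after normalization over 8 arrays. Those of the ribosomal proteins were not, being lowest on array 4 after quantile normalization, on array 1 as deposited and on array 3 with array medians subtracted. Whether the pools differed in how much muscle, skin or blood was cut with the limb was not tested.

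Outside muscle, some genes with a wide spread differed between pools of the same clutch and others between the clutches. Among named genes well above background, the glutathione transferase gene gstp1.L had the largest SD, at 10.90, 12.71, 9.06 and 12.25 (11.23 ± 1.64). The urea cycle gene ass1.S was at 8.66, 10.42, 8.40 and 10.93 (9.60 ± 1.26), and higd1a.L, a mitochondrial gene induced by low oxygen in mammals, at 9.94, 10.79, 8.48 and 10.89 (10.03 ± 1.12). In quantile-normalized values these 3 genes were higher on both arrays 2 and 4 than on arrays 1 and 3. So were hba2.L, hba4.S and hbg2.L, but not hbd.S. All were named for their spread or brightness, and how many of all genes had this split was not counted. Arrays 2 and 4 carry group number 2 in the labels, and arrays 1 and 3 number 1, and what the number stands for is not stated. In limma with clutch in the fit, 0 of 12017 genes or probe sets differed between the group numbers (lowest adjusted p 0.263). Without adjustment, 945 of the 12017 passed 0.05 with a higher and 981 with a lower level in number 2. With clutch and group number both fitted on 4 arrays, little is left to measure the spread. The result does not show that the group numbers were alike. The cornifelin gene cnfn.1.L at 10.19, 11.02, 9.74 and 12.44 and nmral1.S at 10.18, 10.77, 9.29 and 11.91 were also higher on arrays 2 and 4. The genes thdl17.L, at 10.59, 13.34, 11.30 and 12.06, and thdl18.S, at 10.45, 12.85, 10.99 and 11.44, were highest on array 2 and lowest on array 1. The matrix metalloprotease gene mmp3.L was at 7.59, 8.24, 9.29 and 9.75, and XB5774338.L at 8.12, 8.50, 10.59 and 10.46, higher on both arrays of clutch B, with slc7a5.L and ecrg4.L also apart by clutch.

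**Figure D5:**
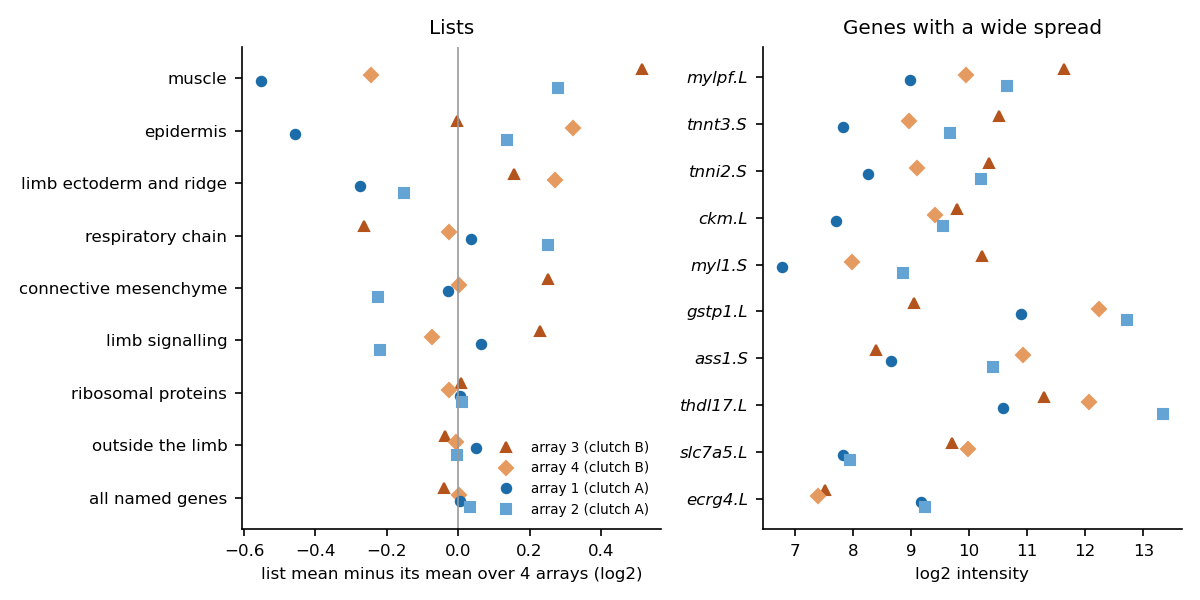
Left, mean log2 intensity of gene lists on each ethanol array minus the mean of the 4 arrays, over genes above the floor on all arrays. Right, log2 intensity of genes with a wide spread. The first 5 are muscle genes, all lowest on array 1 and highest on array 3, unlike ckb.L of the same list, which is not drawn. The genes slc7a5.L and ecrg4.L separate the clutches.

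No gene passed the test between clutches. In limma with Benjamini-Hochberg adjustment, 0 of 12017 genes or probe sets (0%) differed between clutch B and clutch A at an adjusted p under 0.05, and the lowest adjusted p was 0.199. Without adjustment, 539 passed 0.05 with a higher and 617 with a lower level in clutch B. With 2 pools a clutch the design is small, and the result does not show that the clutches were alike. Among named genes the smallest p belonged to cdh1.S, which codes for E-cadherin, at 8.25 and 8.68 in clutch B, against 5.94 and 5.59 in clutch A (log2 difference 2.70, SE 0.24, adjusted p = 0.253 in limma). The amino acid transporter gene slc7a5.L was at 9.70 and 9.97 in clutch B, against 7.83 and 7.95 in clutch A (1.95, SE 0.18, adjusted p = 0.253). The Eph receptor gene ephb3.S was at 7.75 and 7.24 in clutch B and at the floor on both arrays of clutch A. XB5774338.L and XB5815362.S completed the higher 5, by 2.22 and 1.61.

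In the other direction, ecrg4.L, which codes for a secreted peptide precursor, was at 7.52 and 7.41 in clutch B, against 9.18 and 9.24 in clutch A (log2 difference -1.75, SE 0.16, adjusted p = 0.253 in limma). The mitochondrial carrier gene slc25a26.L averaged 5.79 in clutch B and 7.55 in clutch A, and the inflammasome gene nlrp3.L 6.51 in clutch B and 7.81 in clutch A. The cilium gene cfap45.S was lower in clutch B by a log2 difference of -1.46 and the cilium gene dnai1.L was at 6.06 in clutch B and 7.29 in clutch A. In each of these genes both pools of one clutch lay above both pools of the other, which the choice by smallest p favours.

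How far a level belongs to the gene and how far to the probe set could be read from genes measured more than once. Of 1293 named genes with several probe sets, 705 had means over 1 log2 unit apart and 185 (14.3%) over 3 apart, with a median difference between the brightest and the dimmest of 1.14. For the ribosomal protein gene rpl34.L the brightest probe set averaged 14.53 and the dimmest 5.40. Between .L and .S copies, 1017 pairs were measured. The .L copy was brighter in 544 pairs and the .S copy in 432, the median difference of .L minus .S was 0.08, and the median size of the difference was 0.84. Pairs with both copies at the floor counted as equal.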

How the data were processed

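RNA of 4 ethanol pools was hybridised to the Affymetrix array for Xenopus laevis. The authors deposited linear-scale intensities that they call normalized, made with software not given in the sources used here. With 2% of probe sets trimmed at either end, the mean of each array was 500.07 or 500.08. No 2 arrays shared over 0.200% of values. The number of arrays limits the precision.

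Of 15611 probe sets, 120 controls were left out. Symbols came from the array's annotation: 9304 probe sets had 1 symbol, 195 several and 5992 none. Of those with 1 symbol, 9227 were found in the RefSeq gene table of assembly Xenopus_laevis_v10.1, used for names only, and 2 were updated. Quantile normalization was used since the array medians spanned 0.17 in log2. Values were then set to at least the floor and converted to log2, and probe sets of a symbol were averaged. Clutches were compared with limma 3.58.1 in R 4.3.3, over genes above the floor on at least 1 array, after the fit was tested on simulated data. Other steps ran in Python 3.11.15 with pandas 2.3.3. Exposures began on several consecutive days, and the day of each pool is not stated. A difference of day therefore cannot be told apart from one of clutch or group number. RNA was extracted in several batches, and which batch, tank or animals the pools of a clutch shared is not stated either. The p-values thus measure the spread between these pools only.

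Named genes were drawn from the 30 brightest genes, the 15 largest and 10 smallest SDs, up to 4 bright members and up to 4 dark marker or patterning genes per list, all limb identity and Hox genes, and up to 5 genes each way between clutches. Genes outside this rule, namely dhh.S, fgf8.L, fgf10.S, gli3.L, ihh.S, msx1.L, myf5.L, myl1.S, myod1.S, pax3.L, ptch1.S, rpl28.L, rpl34.L, rps10.L, rps20.L, shh.L, tbp.L, tbx3.S, tp63.L, tubb3.L and vim.L, were named after their values were seen. Members and lists were chosen with earlier results of these data known. Alternatives covered scaling, floor, dim genes, probe sets and left-out arrays. The annotation gives no coordinates used here.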

Additional observations from a re-analysis of the deposited data

Results flagged for a closer look

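In 29 list means and the named genes above the floor on all arrays, 1 of the 4 arrays was looked for that stood far from the other 3, which chance gives in about 1 of 20 sets of values. Of the list means, ribosomal proteins were lowest on ethanol array 4 at 13.77, with the other arrays between 13.80 and 13.81, in quantile-normalized values only. Endothelial genes were highest on array 3 at 7.44, with the others between 7.23 and 7.26. As deposited, array 3 was at 7.49 in that list with the others between 7.19 and 7.29, and with array medians subtracted at 7.42 with the others between 7.21 and 7.31, neither gap large enough to stand out. Of 134 genes, 8 met the limit, and this and the 2 of 29 list means are near the share that chance gives. The values of these 8 genes are quantile-normalized, and other scalings were not looked at for them. Ethanol array 1 was highest for actg1.L at 14.36 (others between 14.22 and 14.24) and tmsb4x.L at 14.34 (14.18 to 14.20), and lowest for sparc.S at 13.60 (13.93 to 13.98). Array 2 was lowest for id3.S at 11.06 (11.66 to 11.71), and array 3 for rbm22.S at 11.02, with the others at 11.05. Array 4 was highest for fgf8.L at 6.97 (6.33 to 6.43), and lowest for ctsc.L at 11.06 (11.32 to 11.36) and h3-5.L at 13.82 (14.01 on the others).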

How the results depend on the processing

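The counts depend on where the floor was set. Genes at the floor on all arrays numbered 448 with the floor at the 10th percentile and 3215 at the 30th, against 1701 at the 20th, and genes well above background numbered 4375 when 8 times the floor was asked for, against 6645. The median SD was 0.267 with the floor at the 10th percentile, 0.229 at the 30th and 0.219 with dim genes kept, against 0.245, and it lay between 0.214 without ethanol array 2 and 0.243 without ethanol array 1. Of the 100 brightest named genes, 99 remained in values as deposited and 86 when the brightest probe set stood for a gene, the lowest number of all settings. Of 31 list medians, 12 were above that of all named genes, and only epidermis and cartilage changed side, epidermis with the floor at the 30th percentile, both with the brightest probe set or without ethanol array 1, and cartilage without ethanol array 3. Between clutches, every alternative in limma gave 0 calls, with lowest adjusted p between 0.0986 and 0.770. The split of unadjusted p under 0.05 was 696 higher and 434 lower in clutch B as deposited and 419 higher and 740 lower with array medians subtracted, so the balance of direction follows the scaling. With the labels' group number as a replicate block, chosen after the data were seen, 0 genes were called, and without adjustment 1039 with a higher and 1027 with a lower level in clutch B passed 0.05. Deviations of arrays with the same group number correlated at 0.394 across genes, and what the number stands for is not stated. Low intensities near the floor, cross-binding between gene copies and probe sets that disagree limit what single levels show.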

Other observations

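Of the 100 brightest named genes, 20 belonged to none of the 31 lists, and the genes named here were chosen among them after their values were seen. The nucleosome-binding gene hmgn2.S was at 14.25, 14.25, 13.98 and 14.11 on ethanol arrays 1 to 4 (14.15 ± 0.13, SD, n = 4), and its copy hmgn2.L between 13.70 and 14.04 (13.91 ± 0.15). The histone variant gene h2az2.S averaged 14.08 ± 0.04, the histone gene h3-5.L 13.96 ± 0.09 and the high mobility group gene hmgb3.S 13.96 ± 0.05. The elongation factor gene eef2.1.L averaged 14.43 ± 0.15. Among secreted factors, the heparin-binding growth factor gene mdk.S was at 13.40, 13.54, 13.63 and 13.78 (13.59 ± 0.16). The ferritin family gene ftmt.S was at 13.53, 14.03, 13.73 and 14.15 (13.86 ± 0.28), higher on arrays 2 and 4 than on arrays 1 and 3, the split also seen for hba4.S.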
